A study of Mus musculus with 6 samples.

Results

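The miRNAs described here are transcribed from within the Hox clusters, the arrays of homeobox genes that give cells their position along the body axis. They are miR-10a, miR-10b, miR-196b and both arms of miR-615. They were chosen by exact assay name (mmu-miR-10a, mmu-miR-10b, mmu-miR-196b, mmu-miR-615-3p and mmu-miR-615-5p), and 6 of the 596 mouse miRNA assays matched, because miR-10b was measured by 2 assays. MiR-196a belongs to the same group and was not analysed here. All values come from whole aortas of 6 female Apoe-/- mice that carried VE-Cadherin-CreERT2, a tamoxifen-inducible Cre recombinase driven by an endothelial promoter. The 3 EC-Dicerflox mice were Dicer1flox/flox, so that tamoxifen removed from endothelial cells the gene of Dicer, which processes miRNA hairpins into mature strands. The 3 EC-DicerWT mice were Dicer1WT/WT littermates with the same transgene and the same treatment. Tamoxifen was injected on 5 days, and the mice, 6 to 8 weeks old at the start, then spent 12 weeks on a high-fat diet (21% crude fat, 0.15% cholesterol). Dicer mRNA is not among these assays, and a fall of a miRNA in the whole aorta could come from fewer cells of a type or from less RNA per cell, which cannot be told apart.

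Hox genes are switched on in nested domains, and the miRNAs between them tend to follow their neighbours. MiR-10 and miR-196 repress Hox transcripts themselves. In arteries miR-10a is known from endothelium under steady flow, where it restrains NF-κB signalling, and miR-10 promotes vessel sprouting by lowering the decoy VEGF receptor Flt1. In the RefSeq annotation (GRCm38.p6), Mir10a lies within the span of Hoxb3, between Hoxb5 and Hoxb4. Mir10b lies within the spans of Hoxd3 and Hoxd4. Mir196b lies outside any coding gene, between Hoxa9 and Hoxa10, and Mir615 lies within Hoxc5.

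The mature sequences of the measured strands are given first, because miR-10a and miR-10b are told apart by a single base. They are RefSeq sequences, written 5′ to 3′, and the capitals mark the seed, bases 2 to 8, which pairs with target mRNAs. The 5p arms of Mir10a and Mir10b share their seed, and no other mature miRNA of the RefSeq table has it.
miR-10a-5p: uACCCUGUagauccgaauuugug
miR-10b-5p: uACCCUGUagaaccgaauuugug
miR-10b-3p: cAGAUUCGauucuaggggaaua
miR-196b-5p: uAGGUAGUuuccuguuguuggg
miR-615-3p: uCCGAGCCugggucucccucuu
miR-615-5p: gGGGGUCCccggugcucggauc

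MiR-10a-5p lies at chr11:96317186-96317208 and miR-10b-5p at chr2:74726074-74726096, both on the plus strand. They agree in 22 of 23 bases, and from miR-10a to miR-10b the difference, counted from the 5′ end, is U12A. MiR-10b-3p, the opposite strand that the assay list calls miR-10b*, lies at chr2:74726114-74726135. MiR-196b-5p lies at chr6:52230129-52230150 on the minus strand and has the seed of miR-196a. The arms of miR-615 lie at chr15:103014926-103014947 for 5p and chr15:103014969-103014990 for 3p. The sequence that each assay was designed against is not given in the sources used here, so each assay is read by its name.

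Values are cycle thresholds (Ct), that is, how many PCR cycles an assay needed to reach its signal level. A lower Ct means more RNA, 1 cycle is taken as 1 log2 unit, and undetected assays carry the limit of 40. A level is the mean Ct of 5 control small RNAs in the sample minus the Ct of the miRNA, on the log2 scale. In each aorta 421 to 454 of the 596 assays were detected, and 439 assays, detected in at least 3 aortas, were tested. The control mean lay between 19.4 and 20.4 cycles. Among the marker lists, both smooth muscle miRNAs (miR-143 and miR-145) had the earliest Ct values, between 14.5 and 16.5. Both endothelial strands of miR-126 lay between 17.2 and 21.3. Markers of other cells overlapped with the endothelial range. The 5 leukocyte miRNAs lay between 18.8 and 27.6, the 2 erythrocyte miRNAs detected between 19.4 and 21.7, and the 4 striated muscle miRNAs detected between 18.2 and 33.2. In a subset of assays the third replicates of the groups stand apart from the rest, and results that rest on it are given with and without it.

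All Hox-embedded miRNAs of the list except miR-615-5p were detected in every aorta. The names card A and card B are inferred from the form of the assay numbers, since the labels name no card. The order of mean levels was miR-10a, miR-10b by the card A assay, miR-615-3p, miR-10b by the card B assay, and miR-196b. Each assay amplifies with its own efficiency, so this order is one of assay signals. MiR-10a had a mean Ct of 21.7 and was 79th of the 596 assays by mean Ct, and miR-196b had a mean Ct of 28.2 and was 247th. The level of miR-10a exceeded that of miR-10b on card A in 6 of 6 aortas, by 2.38 ± 1.29 (SD, n = 6), and their ranges did not overlap. The card A assay of miR-10b exceeded miR-615-3p in 5 of 6 aortas, with overlapping ranges. MiR-615-3p in turn exceeded the card B assay of miR-10b in 6 of 6, without overlap. The lowest neighbours, miR-10b on card B and miR-196b, differed by 0.06 ± 1.62 (SD, n = 6), which was smaller than their spread. MiR-10b on card B exceeded miR-196b in only 2 of 6 aortas, the third replicates, so the order of this pair rests on those.

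**Figure D1:**
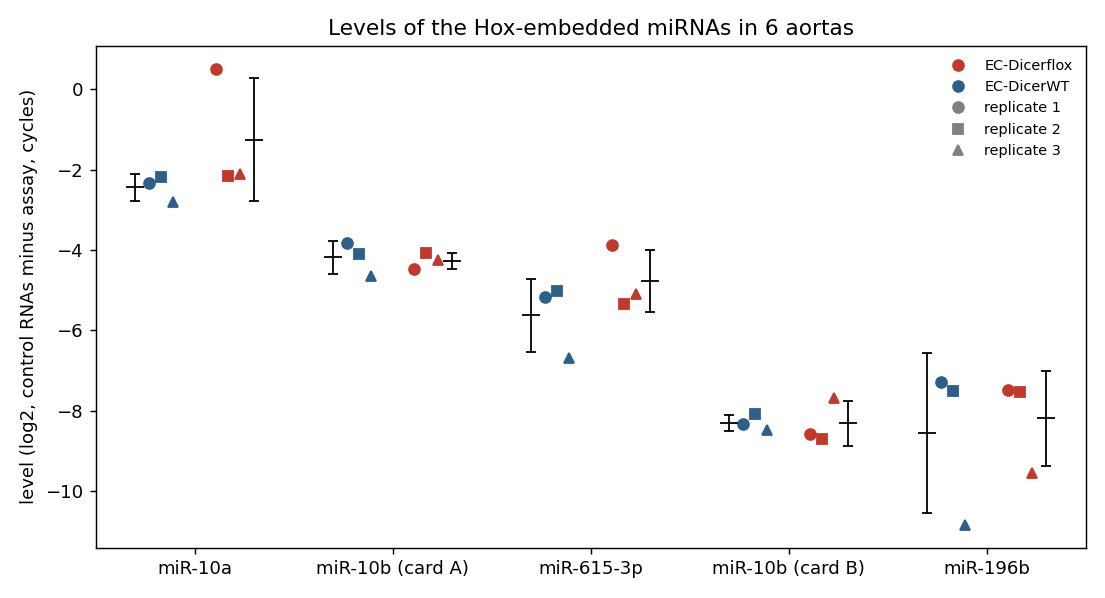
Level of each assay (log2 scale, control RNAs minus assay, in cycles) in the 3 EC-DicerWT (blue) and 3 EC-Dicerflox (red) aortas, with marker shapes for the replicate number and black bars for the mean ± SD of each group. EC-Dicerflox replicate 1 stands at 0.51 for miR-10a, above the other 5 aortas, and the third replicates of both groups stand lowest for miR-196b.

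None of these miRNAs passed the threshold for a difference between EC-Dicerflox and EC-DicerWT aortas in the fit across all assays. By limma, 0 of the 5 tested assays had an adjusted P under 0.05 and 0 had an unadjusted P under 0.05. Over all 439 assays these shares were 0.0% (0 assays) and 4.78% (21 assays). The 5 changes ranged from -0.08 to 1.19 with a median of 0.36, where the median over all tested assays was -0.10. All 5 had an adjusted limma P of 0.99, and their unadjusted limma P values lay between 0.20 and 0.95. The intervals were wide, and a rise of 1 log2 unit lay outside the 95% interval for the miR-10b assays alone. A fall of 1 log2 unit lay outside it for all but miR-196b.

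**Figure D2:**
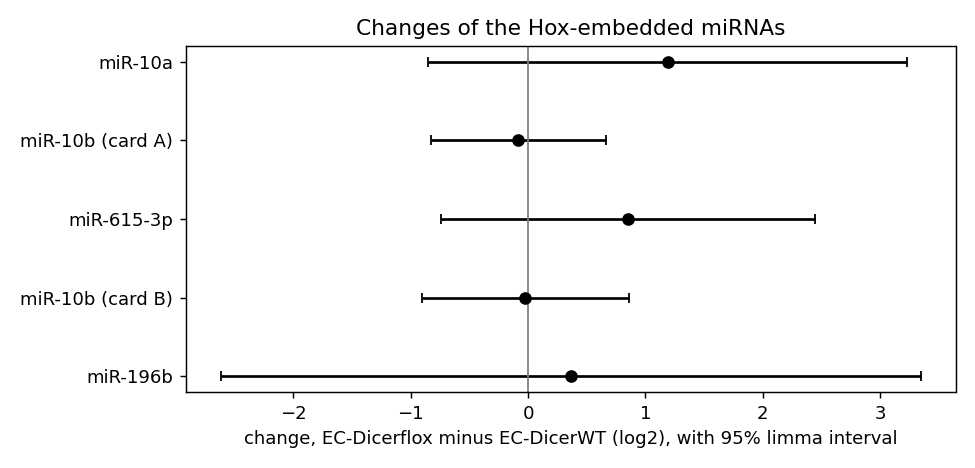
Change of each assay, EC-Dicerflox minus EC-DicerWT, in log2 units with its 95% limma interval (3 mice per group). Every interval includes 0, and those of the miR-10b assays are the narrowest of the 5.

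MiR-10a had the largest change of the 5 assays and the largest SD within EC-Dicerflox aortas. The EC-Dicerflox aortas had Ct values of 18.9, 22.0 and 22.5, and the EC-DicerWT aortas of 21.9, 21.6 and 23.0. A single aorta, EC-Dicerflox replicate 1, lay about 3 cycles below the rest, and the raw Ct values of the groups overlapped. After subtraction from the controls, the levels were 0.51, -2.15 and -2.11 in EC-Dicerflox and -2.33, -2.19 and -2.81 in EC-DicerWT aortas. The EC-Dicerflox mean was -1.25 ± 1.53 (SD, n = 3), and the EC-DicerWT mean was -2.44 ± 0.33 (SD, n = 3). The change was 1.19 ± 0.81 (SE), with a 95% interval from -0.85 to 3.23 and an adjusted limma P of 0.99. Without EC-Dicerflox replicate 1 it was 0.31 ± 0.30 (SE).

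MiR-10a was also the only one of the 5 assays whose levels did not overlap between the groups. Among all tested assays 9.79% did not overlap, and 2.73% did so with EC-Dicerflox higher. The gap for miR-10a was 0.035 log2 units, between EC-Dicerflox replicate 2 and EC-DicerWT replicate 2. The groups overlapped with U6, snoRNA135 or both as reference, and did not with the global mean of the miRNAs.

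The high value of EC-Dicerflox replicate 1 had few counterparts on the cards. This aorta exceeded the other 5 by more than 1 log2 unit in 10 of the 394 assays detected in all aortas (2.54%). Counted in the same way for each of the other aortas, such assays numbered from 2 to 11. In EC-Dicerflox replicate 1, miR-10a, with a gap of 2.62 to the next aorta, ranked 2nd among these 394 assays. MiR-615-3p, with 1.14, ranked 10th. Both miR-10b assays and miR-196b were not highest in this aorta. For miR-10a the other 5 aortas spanned 0.70 log2 units, and the median range of the 79 assays of similar mean Ct (within 2 cycles) was 0.78 over all 6 aortas.

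Marker levels, which are read against the controls, were low in the same aorta for some cell types, but raw Ct values were not late there. The mean level of the 2 endothelial miRNAs was 0.16 in EC-Dicerflox replicate 1 and from 0.39 to 1.05 in the others. For the 5 leukocyte miRNAs it was -3.45, against -3.18 to -2.44. The raw Ct of each of these endothelial and leukocyte miRNAs lay within the range of the other aortas. For miR-126-3p it was 17.6 against 17.2 to 17.8, and for miR-223 21.1 against 20.9 to 22.0. The control mean Ct of this aorta, 19.44, was the lowest, with 19.45 to 20.36 in the others. The smooth muscle mean of 4.16 lay within the range of the others, from 4.15 to 4.79, as did the means of the 2 erythrocyte and 4 striated muscle miRNAs detected. All of these markers were detected in every aorta. The control U87 on card A had a Ct of 21.1 there and from 21.5 to 22.8 in the other aortas. The part of these differences in the miR-10a value was not tested.

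MiR-10b, which shares the seed of miR-10a, was among the steadiest of the group. By the card A assay its Ct was 23.9, 24.0 and 24.6 in EC-Dicerflox and 23.4, 23.5 and 24.8 in EC-DicerWT aortas. The groups overlapped fully in raw Ct, with the EC-Dicerflox values inside the EC-DicerWT range. Mean levels were -4.27 ± 0.19 (SD, n = 3) with endothelial Dicer deleted and -4.18 ± 0.42 (SD, n = 3) with Dicer intact. The change was -0.08 ± 0.29 (SE), with a 95% interval from -0.83 to 0.66, which is 56.2% to 158.2% of the EC-DicerWT level. By the card B assay the Ct was 28.0, 28.6 and 28.0 in EC-Dicerflox and 27.9, 27.5 and 28.6 in EC-DicerWT aortas. These values overlapped as well, and the change of -0.02 ± 0.35 (SE) had a 95% interval from -0.91 to 0.86. The sign of both changes turned under other settings, and the adjusted limma P was 0.99 for both.

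The assays of miR-10b differed far more from each other than any change between the groups. The card B assay crossed its threshold 4.11, 4.61 and 3.42 cycles later than the card A assay in EC-Dicerflox aortas, and 4.51, 3.99 and 3.83 cycles later in EC-DicerWT aortas. The mean of 4.08 ± 0.44 (SD, n = 6) corresponds to a 16.9-fold lower signal on card B if each cycle doubles the product. Between the groups this distance differed by -0.06 (P = 1.0, exact two-sided permutation test over 20 assignments).

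Distances varied widely among the miRNAs with an assay on each card. Of 13 such miRNAs, 7 were detected on both cards in all aortas, and for the other 6 of these the mean distance ran from 0.56 to 6.36 cycles in size. Card B was later by 4.16 cycles for miR-494 and earlier by 6.36 for miR-467a. For the rest of these 6, card B was later by 0.56 to 2.05 cycles. The SD over aortas for these 6 ran from 0.60 to 2.20, so that miR-10b had the smallest spread of the 7. The 5 control RNAs, also run on both cards, had mean distances of 0.22 to 0.67 cycles in size, with SDs over aortas of 0.12 to 1.03. In single aortas the distance of Y1 ran from -1.18 to 1.71 cycles. Although miR-10b is far apart on the cards, its distance in raw Ct thus had the smallest SD of the 7. The cards themselves shifted between aortas, and the control mean on card B minus that on card A ran from -0.37 to 0.31 cycles. With the controls of the same card as reference, the miR-10b distance ran from 3.1 to 4.9, against 3.42 to 4.61 in raw Ct. The other 6 were not compared in that way.

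**Figure D3:**
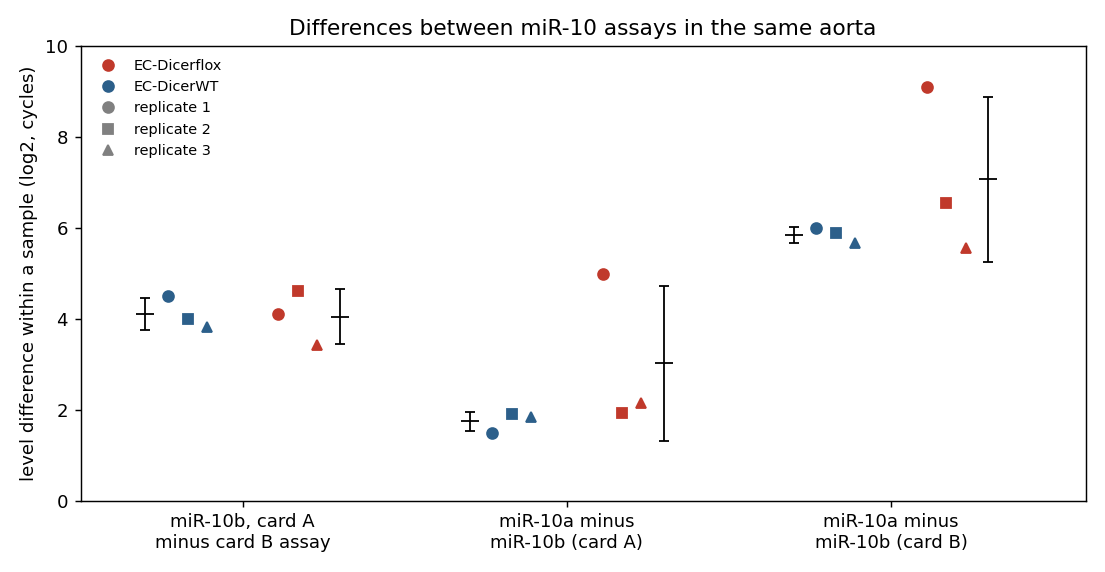
Difference in level between assays of the same aorta (log2, cycles), which needs no control RNA, for 3 EC-DicerWT (blue) and 3 EC-Dicerflox (red) aortas, with black bars for the mean ± SD. The miR-10b assays lie 3.42 to 4.61 cycles apart, and miR-10a exceeds miR-10b on card A by 1.49 to 4.98 cycles, with EC-Dicerflox replicate 1 farthest from the rest.

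The balance of the miR-10 paralogues can be read within each aorta without any control RNA. The level of miR-10a minus that of miR-10b on card A was 4.98, 1.93 and 2.15 in EC-Dicerflox aortas and 1.49, 1.90 and 1.83 in EC-DicerWT aortas. All EC-Dicerflox values lay above all EC-DicerWT values, by 0.03 at the closest. The difference between the groups was 1.28, with an exact two-sided permutation P of 0.1, the smallest that 3 against 3 samples allow, and 0.4 after Benjamini-Hochberg adjustment over the 4 within-sample differences tested. Without EC-Dicerflox replicate 1 the difference was 0.29. Against the card B assay of miR-10b the groups overlapped, and the difference of 1.21 (exact permutation P of 0.4, adjusted 0.8) was 0.20 without that replicate.

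MiR-196b, the lowest in mean level of the assays detected in all aortas, set the third replicates of both groups apart from the other aortas. Its Ct values were 26.9, 27.4 and 29.9 in EC-Dicerflox aortas and 26.9, 27.0 and 31.0 in EC-DicerWT aortas. The other 4 aortas lay between 26.9 and 27.4, and the third replicates lay at least 2.51 cycles later. In levels the third replicates were lowest by 2.02 log2 units, the 7th largest such gap among the 394 assays detected in all aortas. In 11.7% of these assays the third replicates were both lowest. The change between the groups was 0.36 ± 1.18 (SE), with a 95% interval from -2.62 to 3.34. In replicates 1 and 2 alone it was -0.10 ± 0.26 (SE), and without EC-DicerWT replicate 3 it was -0.78 ± 0.77 (SE). The adjusted limma P was 0.93 and 0.99 in these fits. With a term for the third replicates the change of 0.36 had a standard error of 0.36. The level of miR-196b minus that of miR-10a differed by -0.83 between the groups, with overlap (exact permutation P of 0.6, adjusted 0.8). It was -1.54 in replicates 1 and 2 alone, and each mouse but EC-Dicerflox replicate 3 moved it widely when left out. It was -1.79 without EC-DicerWT replicate 3, -1.61 without EC-Dicerflox replicate 2, -0.44 without EC-DicerWT replicate 2, -0.26 without EC-DicerWT replicate 1 and -0.30 without EC-Dicerflox replicate 1.

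The other assays of the group shifted less in the third replicates. Relative to the other 4 aortas, the mean level in the third replicates was lower by 2.74 log2 units for miR-196b, 1.02 for miR-615-3p, 0.92 for miR-10a and 0.34 for miR-10b on card A, and it was higher by 0.35 for miR-10b on card B. The median shift of the 394 assays was 0.11. The miR-10b assays lay closest together in the third replicates, at 3.42 and 3.83 cycles against 3.99 to 4.61 in the others. The assays of 2 of the other 6 duplicated miRNAs, and of 0 of the 5 control RNAs, were also closest in the third replicates. The control RNAs moved there as well in their mean, though U6 was not later there. U6 had a Ct of 15.7 and 15.6 on card A (15.6 to 15.8 in the others), and of 15.2 in both on card B (15.1 to 16.6). The mean Ct of the 5 controls was 20.4 and 20.2 in the third replicates and 19.4 to 19.9 in the others, and U87 on card B had a Ct of 23.8 in both against 21.3 to 22.5. The smooth muscle mean level was 4.79 and 4.59 in the third replicates and 4.15 to 4.37 in the others, but the raw Ct was not earlier there (16.5 and 16.4 against 15.8 to 16.4 for miR-143, 14.7 and 14.8 against 14.5 to 14.7 for miR-145). The part of the controls in these shifts was not tested. The raw Ct, which uses no control, was later in these aortas than in the other 4 for most assays of the group. The gap was 2.51 cycles for miR-196b, 0.66 for miR-10b on card A, 0.44 for miR-10a and 0.22 for miR-615-3p. For miR-10b on card B the raw Ct values overlapped.

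**Figure D4:**
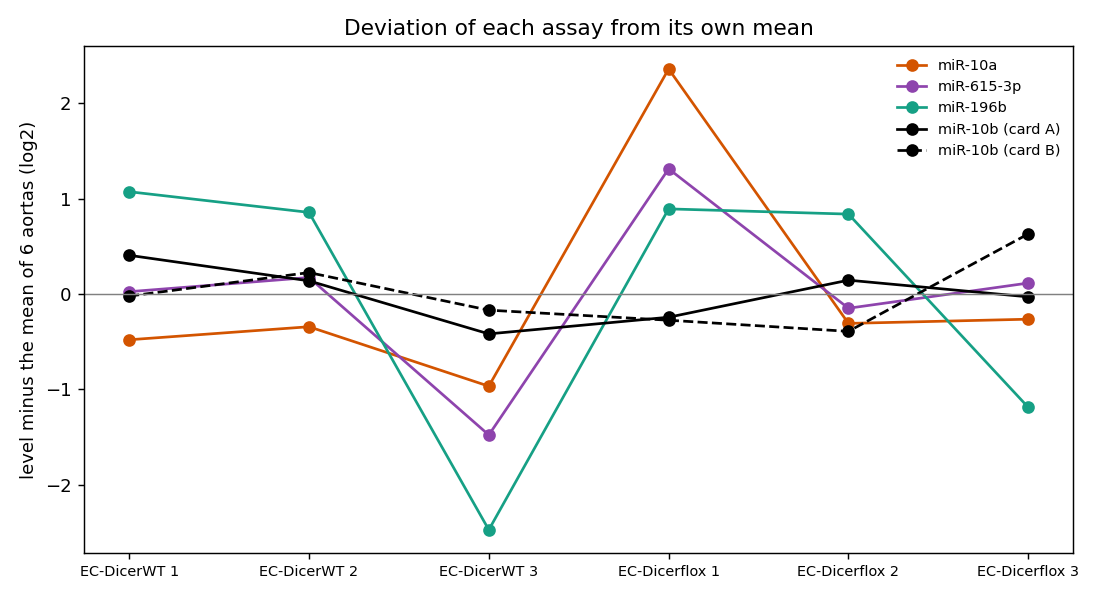
Level of each assay minus its own mean over the 6 aortas (log2), where lines only join the points of an assay and aortas have no order. MiR-10a and miR-615-3p peak in EC-Dicerflox replicate 1, miR-196b drops in the third replicates of both groups, and the miR-10b assays stay within 1 log2 unit of their means.

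MiR-615 lies within Hoxc5, and only its 3p arm was detected in all aortas. MiR-615-3p had Ct values of 23.3, 25.2 and 25.4 in EC-Dicerflox aortas and 24.7, 24.5 and 26.8 in EC-DicerWT aortas. EC-Dicerflox replicate 1 was highest in level and EC-DicerWT replicate 3 lowest, with overlap between the groups. Mean levels were -4.77 ± 0.78 (SD, n = 3) with endothelial Dicer deleted and -5.62 ± 0.91 (SD, n = 3) with Dicer intact. The change was 0.85 ± 0.63 (SE), with a 95% interval from -0.74 to 2.45 and an adjusted limma P of 0.99. It was 0.41 when EC-Dicerflox replicate 1 was left out, and 0.33 when EC-DicerWT replicate 3 was. The 5p arm was detected in 1 of 6 aortas, EC-Dicerflox replicate 2, at a Ct of 39.3, and was not tested, so the strands could be compared only as a detected and a mostly undetected assay.

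The patterns over the 6 aortas were compared as the root mean square difference of levels centred on each assay's mean, over the 394 assays detected in all aortas. This is a description with no test. The assay nearest to miR-10a was miR-615-3p, at 0.58 log2 units, followed by miR-1949 (0.66) and miR-30b* (0.67). Nearest to miR-615-3p were miR-1949 (0.13), miR-30b* (0.39) and miR-1941-5p (0.40). The card A assay of miR-10b was nearest to miR-376c (0.096), miR-337 (0.098) and miR-17* (0.12). Its card B assay was nearest to miR-297a* (0.12), miR-1941-3p (0.16) and miR-700 (0.18), all of them on card B. Card B also held miR-337, miR-17* and all those named for miR-615-3p, although these were nearest to card A assays. MiR-196b was nearest to miR-380-5p (0.36), miR-1894-3p (0.58) and miR-34b-5p (0.61). The miR-10b assays thus had no nearest assay in common, and 0.40 log2 units separated them from each other. The card B assay was the 137th nearest to the card A assay among 393 compared.

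Of the opposite strands of these hairpins listed for comparison, miR-10b* and miR-196a* were measured. MiR-10b* had Ct values of 28.6, 28.1 and 30.8 in EC-Dicerflox aortas and 27.5, 28.4 and 30.2 in EC-DicerWT aortas. As for miR-196b, the third replicates were lowest, here by 0.94 log2 units in level. Its change was -0.28 ± 0.79 (SE) with an adjusted limma P of 0.99. The level of miR-10b on card A exceeded that of miR-10b* by 4.90 ± 0.79 (SD, n = 6), while on card B the excess of 0.82 ± 1.23 (SD, n = 6) was smaller than its spread and was negative in 2 aortas. Which strand signal was higher, and by how much, thus depended on the assay chosen for miR-10b.

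MiR-196a*, the only strand of the Mir196a hairpins measured here, had Ct values of 38.1, 40 and 40 in EC-Dicerflox aortas and 34.0, 36.0 and 40 in EC-DicerWT aortas. It was undetected in the third replicates and in EC-Dicerflox replicate 2, and late in the others. With undetected wells at 40, its change was -2.51 ± 1.43 (SE) with an adjusted limma P of 0.99.

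Relatives of miR-10 outside the Hox clusters are shown because their seeds start with the same bases. The seed of miR-99a, miR-99b and miR-100 is common to these 3 and departs from that of miR-10 after its start.
miR-99a-5p: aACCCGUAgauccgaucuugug
miR-99b-5p: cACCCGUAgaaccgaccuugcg
miR-100-5p: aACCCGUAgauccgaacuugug

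Of these relatives, 1 was detected in all aortas. MiR-99b had Ct values of 18.8, 18.9 and 19.1 in EC-Dicerflox aortas and 18.0, 18.1 and 18.5 in EC-DicerWT aortas. All EC-Dicerflox values lay later than all EC-DicerWT values, and in levels the groups did not overlap either. Its change was -0.63 ± 0.26 (SE), and its limma P was 0.055 before and 0.98 after adjustment. Among all tested assays 7.06% did not overlap with EC-Dicerflox lower.

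MiR-99a was detected in 2 aortas, EC-Dicerflox replicate 1 at a Ct of 26.5 and EC-DicerWT replicate 1 at 38.5, and was not tested. The early signal of miR-99a in EC-Dicerflox replicate 1 thus rests on a single well. MiR-99b went the other way in level, with its lowest value in that aorta (0.60, against 0.96 to 1.70 in the others). Its raw Ct there, 18.8, lay within the range of the other aortas, from 18.0 to 19.1. MiR-100 was detected in 2 aortas, at 35.9 in EC-Dicerflox replicate 1 and at 36.0 in EC-DicerWT replicate 3, and was not tested either.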

How the data were processed

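Per the study's methods, RNA from whole aortas was copied to cDNA, preamplified with a rodent primer set and measured on TaqMan microRNA cards. The values deposited by the authors are raw Ct values with no reference subtracted. How the baseline and signal level were set is not given in the sources used here. The table had 608 rows. Its 596 miRNA assays were divided into card A (335) and card B (261) by how their assay numbers are written, and 10 control and 2 plant assays made up the rest. The division into cards is thus inferred and not given by the labels. Groups and replicate numbers came from the labels.

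The cards were averaged for each of U6, U87, Y1, snoRNA135 and snoRNA202, and the mean of these 5 controls was the reference. Assays with a Ct under 40 in at least 3 of 6 samples were tested with limma 3.58.1 in R 4.3.3 (lmFit and eBayes, two-sided), with Benjamini-Hochberg adjustment over all 439 assays. The test was checked on simulated levels with independent normal noise, which held no shift of the third replicates and no single outlying aorta. Within-sample differences were compared by exact permutation in Python 3.11.15. Ct values have no read depth, and precision is set by 3 mice per group. Every member of the Hox-embedded group was named, with the listed relatives and the 3 nearest assays of each member. The members and lists were chosen with earlier results of these data known. Same-numbered samples did not all deviate together (the correlations across assays were 0.24, 0.03 and 0.39), and the mice were treated as unpaired.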

Additional observations from a re-analysis of the deposited data

How the results depend on the processing

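In 20 alternative fits (other references, filters, limits and variance models, a replicate block, the third replicates as a term or left out together, and single mice left out), 0 of the 5 assays had an adjusted limma P under 0.05, and 0 had an unadjusted one. The change stayed positive for miR-10a, from 0.31 to 1.64, and for miR-615-3p, from 0.33 to 1.15. The sign of miR-196b turned with U6 as reference (-0.016) and in replicates 1 and 2 (-0.10), and leaving out 1 mouse gave -0.78 (without EC-DicerWT replicate 3) to 1.05. For miR-10b on card B it turned with the global mean (0.030) and with snoRNA135 (0.025), and leaving out 1 mouse gave -0.34 to 0.17, positive without EC-Dicerflox replicate 1 or 2 and without EC-DicerWT replicate 2. For miR-10b on card A all 20 fits gave -0.46 (U6 as reference) to 0.10, and leaving out 1 mouse gave -0.31 to 0.10, positive when EC-DicerWT replicate 1 or EC-Dicerflox replicate 1 was left out. The distance between the miR-10b assays differed between the groups by 0.11 in replicates 1 and 2, and by -0.34 to 0.25 with 1 mouse left out, positive when EC-DicerWT replicate 1 or EC-Dicerflox replicate 3 was missing. With a replicate block the change of miR-10a was 1.19 with an adjusted limma P of 0.87, and the block changed no call. What caused the sign changes was not tested.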
